A study of Mus musculus with 6 samples.

Results

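The genes of the cytoplasmic translation initiation factors (eIF1 to eIF6) and elongation factors (eEF1 and eEF2) were examined in mouse erythroid cells treated with a peptide taken from the chromatin remodeller CHD4. Members were the protein-coding genes whose symbol starts with Eif and a digit from 1 to 6, or with Eef and the digit 1 or 2, without the eIF2 kinases Eif2ak1 to Eif2ak4 and without genes of the Y chromosome. This rule found 62 genes among the 48709 identifiers of the count table, and 58 of them passed the filter on low counts, as did 12722 genes in all. The data are poly(A)-selected RNA-seq counts per gene from 6 libraries, 3 for each of the CHD4-APR and CTRL groups, named here by group and replicate (CTRL 1 to 3 and CHD4-APR 1 to 3).

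Both groups were G1E-ER4 cells, mouse cells of embryonic stem cell origin held at an erythroid progenitor stage. Their GATA-1 is a fusion with an estrogen receptor domain, and tamoxifen switches it on and starts maturation. The CHD4-APR group received 10 μM of a peptide with the aggregation-prone region of the CHD4 C-terminus, and the CTRL group 10 μM of a peptide with alanines in its place, both carried into the cells by a Tat sequence. Tamoxifen was added 2 h later for 28 h, at 100 nM in the growth protocol and 100 μM in the series design, so both groups were maturing cells of a single transfected line and the tamoxifen dose is uncertain. The labels do not say whether replicates were separate cultures, and p-values then measure only the spread between these samples, which may be technical.

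In the first step of cap-dependent translation, eIF4E binds the cap, eIF4G holds eIF4E and the RNA helicase eIF4A together, and eIF3 joins this complex to the small ribosomal subunit. The subunit carries the initiator tRNA in a ternary complex with eIF2 and GTP, and scans to a start codon under the control of eIF1 and eIF1A. There eIF5 triggers GTP hydrolysis and eIF5B joins the large subunit. During elongation eEF1A brings aminoacyl-tRNA to the ribosome and eEF2 moves the ribosome along. Erythroid cells couple this machinery to heme, since the heme-regulated kinase Eif2ak1 phosphorylates eIF2 and so limits the exchange of its GDP by eIF2B.

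Library totals ranged from 41687482 to 49784177 counts in the CTRL group and from 41945739 to 46888804 in the CHD4-APR group. The biological coefficient of variation was 0.0518 over all genes. All 12 erythroid markers were detected. Their summed level was 70216 to 75682 CPM (counts per 1000000 of the scaled library total) in CTRL and 59421 to 63486 CPM in CHD4-APR, and hemoglobin genes took 6.05% to 6.45% and 5.11% to 5.44% of the counts. The 4 globin genes among the markers fell by 0.24 to 0.33 on the log2 scale. With the length and GC correction described below, Hbb-bt and Hbb-bs were at -0.18 and -0.19, and Hba-a1 and Hba-a2 were not called (-0.04, FDR 0.480, and -0.02, FDR 0.731). Epb42 and Tfrc rose by 0.34 and 0.26 (FDR 6.46e-04 and 0.00390; corrected 0.25 and -0.02, the latter with an FDR of 0.752) and Slc4a1 was not called (0.05, FDR 0.371; corrected 0.11, FDR 0.0366), and all 3 were higher in every CHD4-APR library. The transcription factor genes Klf1 and Nfe2 fell by 0.17 each (FDR 0.0150 and 0.00368; corrected 0.02, FDR 0.716, and -0.10, FDR 0.0374). In bulk RNA a change in the number of cells of a kind and a change in RNA per cell cannot be told apart. Removing the hemoglobin genes left 30 members called, the same number as with them. The 5 megakaryocyte markers summed to 47.6 to 50.2 CPM in CTRL and 41.2 to 46.8 CPM in CHD4-APR with Ppbp at 0 throughout. Those of neutrophils and macrophages reached at most 4.72 CPM with Mpo at 0, and those of mast cells 0.556 CPM with Mcpt8 at 0. The lymphoid genes Cd3e and Ptprc and the 3 embryonic stem cell markers were at 0 in all libraries. Chd4 itself was at 226.6 to 236.7 CPM in CTRL and 236.8 to 241.9 CPM in CHD4-APR. The peptide does not target this RNA.

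The translation factor genes changed by small amounts and in both directions. At a false discovery rate (FDR) under 0.05, 10 members were higher and 20 lower with CHD4-APR and 28 were not called. The called share was 51.7% of the members tested, beside 38.3% of all genes tested (20.4% higher and 17.8% lower) and 43.0% of the 10100 protein-coding genes tested. The median log2 fold change was -0.03 in the members and -0.01 over all genes, and the members ranged from -0.31 for Eif4ebp1 to 0.54 for Eif5a2. No member passed both the FDR and a 1.5-fold change, which 4.23% of all genes did. The 2 groups of libraries did not overlap for 12 members that were higher and 24 that were lower, in all 36 members (62.1%), against 49.9% of all genes (25.0% in each direction) and 55.0% of the protein-coding genes tested. Removal of the library CHD4-APR 2 reduced the members called to 19 and all genes called from 4871 to 3703.

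**Figure D1:**
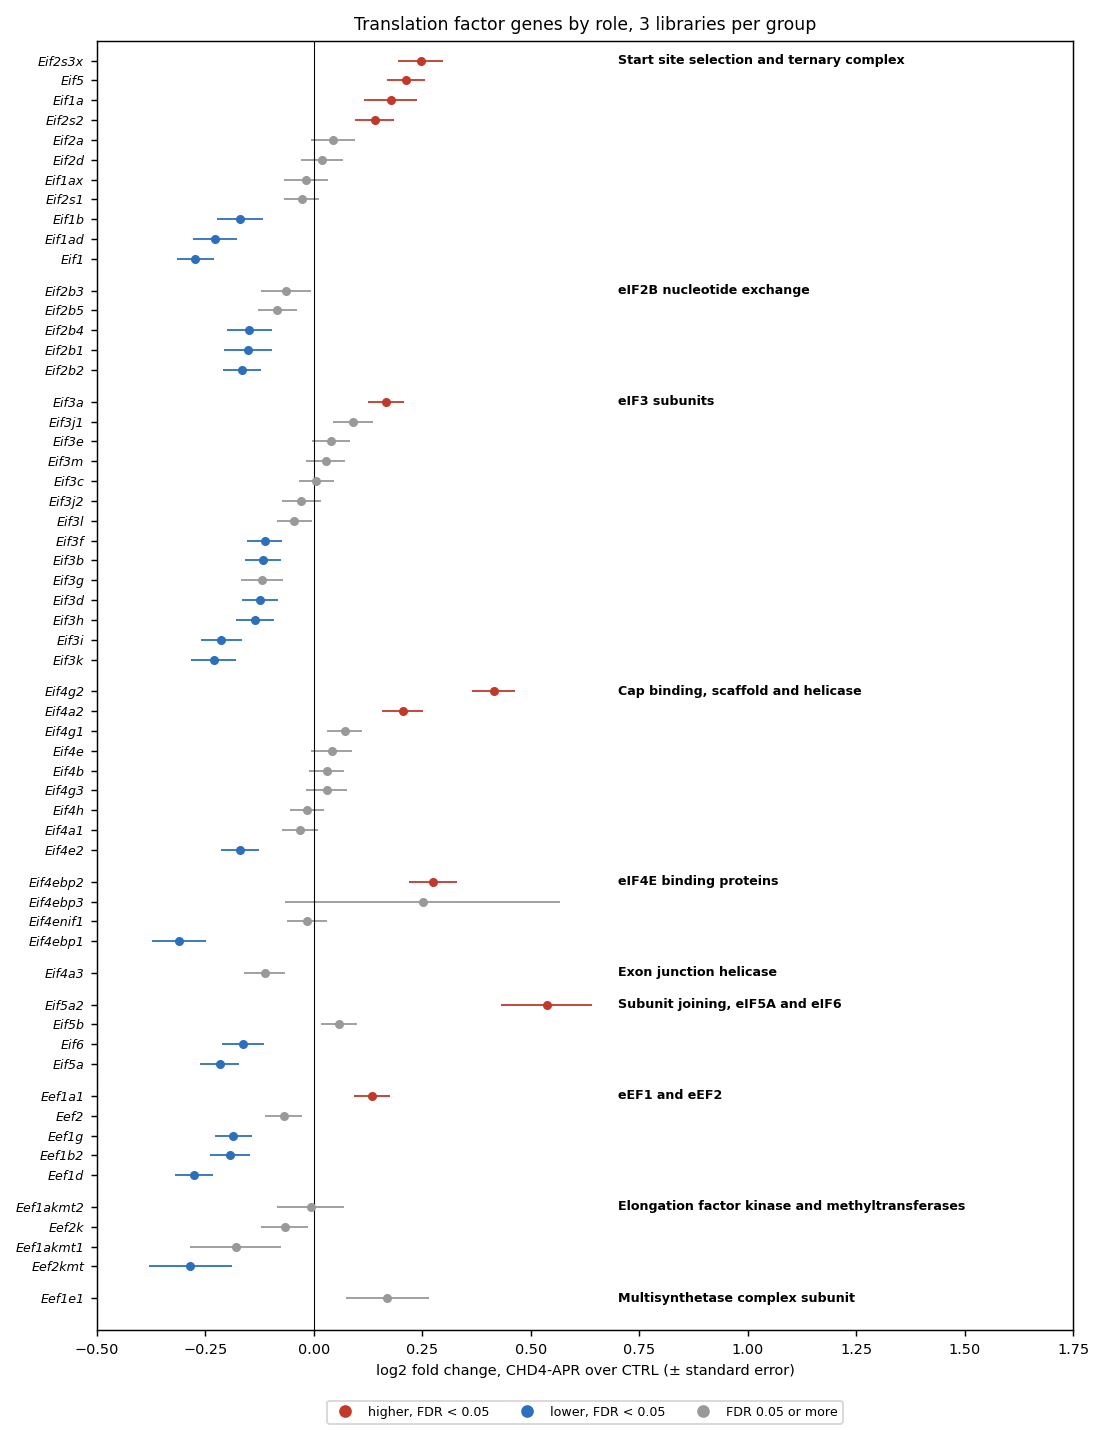
The log2 fold change of each of the 58 tested members (CHD4-APR over CTRL, horizontal axis) is plotted by role, with bars for the standard error of the fit. Red points were higher and blue points lower at an FDR under 0.05. All 5 eIF2B subunits lie left of 0, and Eif4g2 and Eif5a2 lie farthest to the right.

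These directions moved with base composition and transcript length. The 10 members called higher had a median GC content of 42.4% in the longest transcript and a median exonic length of 5561 bases, while the 20 called lower had 51.3% and 2639 bases. Over the 58 members, the correlation of the log2 fold change with GC content was r = -0.52 (Spearman's rho -0.50), and over the 12677 genes with both properties it was r = -0.40 (rho -0.46). Genes are not independent replicates and share the same 6 libraries, so this is a description. After each library was corrected for a smooth trend on length and GC content, 4 members were higher and 22 lower, beside 11.6% and 16.0% of all genes, and the median of the members was -0.08. Of the 10 rises, Eif4g2, Eif2s3x, Eef1a1 and Eif4ebp2 were called in the same direction after the correction, 5 were no longer called, and Eif2s2 was called lower. Of the 20 falls, 9 were called in the same direction and 11 were no longer called. Another 12 members were called lower only with the correction, among them Eif3e (log2 fold change 0.04 without and -0.33 with it). The part of GC content and length in the results was not tested, and corrected values are given beside most of the genes described below.

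**Figure D2:**
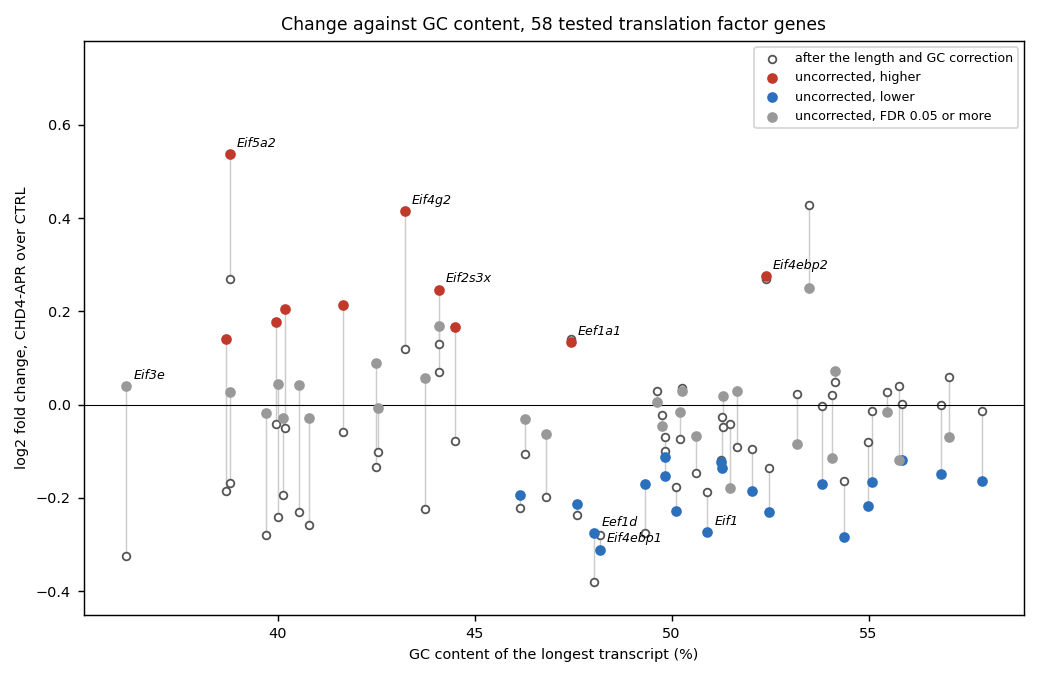
Each of the 58 tested members is placed by the GC content of its longest transcript (horizontal axis, percent) and its log2 fold change, CHD4-APR over CTRL (vertical axis). Filled points are the uncorrected values, coloured by call, and open points joined by a line are the values after the length and GC correction. The uncorrected rises lie mostly at low GC content, and the points at low GC content move down most with the correction.

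Levels per exonic kilobase (RPKM, CPM divided by the length of all exons joined) spanned more than 3 orders of magnitude, and the elongation factors stood at the top. Eef1a1, which delivers aminoacyl-tRNA, had a mean over the 6 libraries of 2939 RPKM, and Eef2, the translocase, 1456 RPKM. Eif3h, Eif1 and Eef1b2 followed with 252.8, 251.5 and 242.9 RPKM. Their CTRL levels of 265 ± 11.6, 275 ± 10.3 and 259 ± 14.2 RPKM (SD, n = 3) lay within 2 SD of each other. In CHD4-APR they were 241 ± 5.87, 228 ± 5.35 and 227 ± 5.86 RPKM, where Eif3h lay more than 2 SD above the others. The order in CTRL was not resolved at this spread, so no change of order is read from these levels. At the lower end, Eif5a2 had a mean of 1.20 RPKM and Eif4ebp3 of 0.751 RPKM, the latter from 18 to 30 reads a library. Not tested were Eif4e3, Eif4e1b and Eef1a2, each with 0 counts in every library, and Eef1akmt3 with 5 counts in CTRL replicate 3, 2 in CHD4-APR replicate 1 and 0 in the others. All members together took 2.40% to 2.45% of the counts in CTRL and 2.51% to 2.52% in CHD4-APR, of which Eef1a1 alone took 0.668% to 0.705% and 0.773% to 0.783%. After scaling, the summed levels overlapped, with 24217 to 24824 CPM in CTRL and 24713 to 24902 CPM in CHD4-APR.

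**Figure D3:**
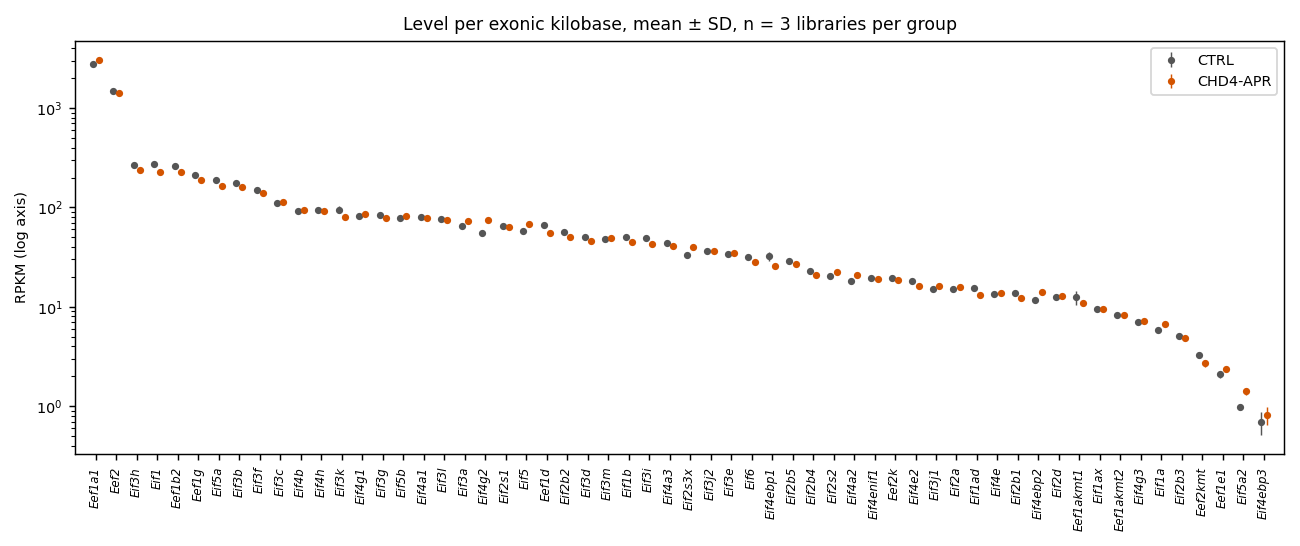
The level of each tested member in RPKM (vertical log axis) is shown as the mean ± SD of the 3 libraries of each group, in order of the mean over all 6 libraries. Eef1a1 and Eef2 stand apart at 2939 and 1456 RPKM, and the 2 groups lie close together for nearly every gene.

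The start site and initiator tRNA group held 11 genes, of which 4 rose, 3 fell and 4 were not called. It includes Eif1ad, whose part in start site selection was not examined. With the length and GC correction 1 gene of the group was called higher and 6 lower, and the group median went from 0.02 to -0.18. Eif1 (ENSMUSG00000035530, chr11:100319885-100322096), which keeps scanning ribosomes from starting at wrong codons, was at 602, 570 and 561 CPM in CTRL and at 473, 470 and 491 CPM in CHD4-APR. All CHD4-APR libraries were below all CTRL libraries, a log2 fold change of -0.27 (SE 0.0431, FDR 1.39e-04; corrected -0.19). Its paralog Eif1b, whose product is closely related, fell by 0.17 on the log2 scale (FDR 0.0167), but with CHD4-APR 3 left out it was -0.13 with an FDR of 0.106, and its corrected value was -0.0038. Eif1ad, named for an eIF1A domain, was at 43.5, 44.2 and 42.5 CPM in CTRL and at 36.8, 37.4 and 37.0 CPM in CHD4-APR, without overlap (log2 fold change -0.23, SE 0.0514, FDR 0.00232; corrected -0.18). Part of these counts may belong elsewhere, since 31.6% of the 50-base stretches of Eif1 also lie in other genes and 15.1% of those of Eif1ad in Banf1 on the opposite strand.

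The rises in this group included the GTPase-activating factor of eIF2 and subunits of eIF2 itself. Eif5 (ENSMUSG00000021282, chr12:111538016-111546752), which triggers GTP hydrolysis by eIF2 at the start codon, was at 379, 415 and 400 CPM and rose to 471, 453 and 459 CPM, above every CTRL library (log2 fold change 0.21, SE 0.0440, FDR 0.00121). Eif2s3x, the gamma subunit that binds GTP and the initiator tRNA, was at 117, 135 and 131 CPM in CTRL and at 149, 153 and 152 CPM in CHD4-APR (log2 fold change 0.25, SE 0.0518, FDR 0.00140; corrected 0.13). Its processed pseudogene Gm2223 shares 36.2% of the 50-base stretches of its longest transcript. Eif2s2, the beta subunit, was at 134, 143 and 136 CPM in CTRL and at 147, 152 and 156 CPM in CHD4-APR, again without overlap (log2 fold change 0.14, SE 0.0448, FDR 0.0210). Eif1a, one of the eIF1A genes, was at 23.4, 24.7 and 25.6 CPM in CTRL and at 27.6, 27.9 and 27.8 CPM in CHD4-APR (log2 fold change 0.18, SE 0.0603, FDR 0.0288). With the correction Eif5, Eif2s2 and Eif1a changed sign, to -0.06, -0.19 and -0.04. The calls of Eif5 and Eif2s3x were kept whichever library was left out, while those of Eif2s2 and Eif1a were lost in some of these smaller fits with log2 fold changes of 0.13 to 0.14 and 0.14 to 0.18. When CTRL 3, CHD4-APR 2 or CHD4-APR 3 was left out, the FDR of Eif2s2 was 0.0839, 0.0673 or 0.0838. When CTRL 1 or CHD4-APR 1, 2 or 3 was left out, the FDR of Eif1a was 0.0799, 0.0554, 0.0826 or 0.0647. The alpha subunit gene Eif2s1, whose product is the target of the eIF2 kinases, had a log2 fold change of -0.03 (FDR 0.628; corrected -0.26, FDR 1.08e-04). Eif1ax, the other eIF1A gene, and Eif2a, which can bring initiator tRNA without eIF2, were also called only with the correction (-0.02 without and -0.28 with it, and 0.04 without and -0.24 with it).

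The annotated start codons of 4 genes are shown because eIF1 controls start codon choice and because Eif4g2, described below, has an annotated start other than ATG. The sequences are from GRCm38 with the start codon in capitals and 9 bases on each side, for Eif1 (chr11:100320121-100320141, plus strand), Eif1b (chr9:120492802-120492822, plus strand), Eif5 (chr12:111539607-111539627, plus strand) and Eif4g2 (chr7:111081536-111081556, minus strand).
Eif1: tcgtatcgtATGtccgctatc
Eif1b: tagtgtcgcATGtccactatc
Eif5: taagccaaaATGtctgtcaac
Eif4g2: gccgccaaaGTGgagagtgcg

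The 5 genes of eIF2B, the exchange factor that recharges eIF2 with GTP, all had negative fold changes, from -0.17 to -0.06 on the log2 scale, and 3 of the 5 passed the test. Eif2b2, the beta subunit, was at 106.1, 106.0 and 106.0 CPM in CTRL and at 91.4, 96.6 and 95.4 CPM in CHD4-APR (log2 fold change -0.17, SE 0.0438, FDR 0.00661). Eif2b1 and Eif2b4 fell by 0.15 each (FDR 0.0386 and 0.0320). All 4 genes Eif2b1, Eif2b2, Eif2b4 and Eif2b5 were lower in every CHD4-APR library than in any CTRL library. Of all 12722 genes tested, 25.0% were lower without overlap, 17.8% were called lower and 6575 had a negative fold change. The 3 calls did not hold with the length and GC correction (corrected -0.01 for Eif2b2, -0.10 for Eif2b1 and -0.0014 for Eif2b4), in which Eif2b3 was called instead (-0.06 without it, -0.20 with it) and Eif2b5 had a positive value (0.02, FDR 0.730), so the shared sign of the 5 genes did not hold with it. Leaving out CTRL 1, CTRL 3, CHD4-APR 1 or CHD4-APR 2 gave Eif2b4 an FDR of 0.0760, 0.0588, 0.128 or 0.134. Leaving out CTRL 2, CTRL 3 or CHD4-APR 1, 2 or 3 gave Eif2b1 an FDR of 0.106, 0.0536, 0.0716, 0.144 or 0.104. The log2 fold changes in these fits were -0.16 to -0.12 for Eif2b4 and -0.18 to -0.13 for Eif2b1.

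The eIF3 complex, the scaffold between the small subunit and the cap-bound factors, had 14 genes tested, of which 1 rose, 6 fell and 7 were not called, with a median log2 fold change of -0.08. With the length and GC correction 0 were called higher and 7 lower. Eif3k, a subunit of the PCI/MPN core, was at 280, 246 and 242 CPM in CTRL and at 219, 218 and 218 CPM in CHD4-APR, where all 3 libraries were lower (log2 fold change -0.23, SE 0.0518, FDR 0.00223; corrected -0.14). Eif3i, a subunit outside that core, went from 192, 184 and 173 CPM to 153, 157 and 164 CPM, without overlap (log2 fold change -0.21, SE 0.0477, FDR 0.00222; corrected -0.24). Eif3h, the eIF3 gene with the highest level per length, was at 448, 418 and 414 CPM in CTRL and at 389, 379 and 397 CPM in CHD4-APR, also without overlap (log2 fold change -0.14, SE 0.0441, FDR 0.0229; corrected -0.03). It lost its call when CTRL 1 (FDR 0.0510), CHD4-APR 1 (0.0638) or CHD4-APR 2 (0.137) was left out, with log2 fold changes of -0.13 to -0.10. Other genes, mainly a processed pseudogene, share 26.2% of its 50-base stretches.

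Eif3a, the largest subunit and the base of the complex, went the other way, from 546, 576 and 568 CPM to 644, 622 and 630 CPM, and the groups did not overlap (log2 fold change 0.17, SE 0.0413, FDR 0.00449). Its corrected value was -0.08. Eif3d, which can itself bind caps, Eif3b and Eif3f fell by 0.12, 0.12 and 0.11 on the log2 scale (FDR 0.0282, 0.0329 and 0.0361), and each of these calls was lost when 1 of several libraries was left out. With CHD4-APR 1, 2 or 3 left out, the FDR was 0.0896, 0.0847 or 0.109 for Eif3d, 0.0819, 0.152 or 0.0988 for Eif3b, and 0.0819, 0.137 or 0.138 for Eif3f. With CTRL 1 left out it was 0.0561, 0.0548 and 0.0506. With CTRL 3 left out it was 0.0721 for Eif3b and 0.0555 for Eif3f, and with CTRL 2 left out 0.0517 for Eif3f. The log2 fold changes in these fits lay between -0.13 and -0.09. In Eif3d, 42.1% of the 50-base stretches lie also in the antisense gene Gm17638, and the libraries do not mark strand. Of the eIF3 genes called lower, Eif3d, Eif3i and Eif3k were also called lower with the correction. The pair Eif3j1 and Eif3j2, near-identical genes for the loosely bound subunit eIF3j, cannot be counted apart with confidence, since 90.8% of the stretches of Eif3j2 also lie in Eif3j1.

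The group of cap-binding, scaffold and helicase genes had 9 of 11 members tested, of which 2 rose, 1 fell and 6 were not called. Eif4g2 (ENSMUSG00000005610, chr7:111067750-111083030) encodes DAP5, an eIF4G relative that lacks the eIF4E-binding part and serves translation that does not depend on eIF4E. It was at 520, 600 and 577 CPM in CTRL and at 752, 757 and 754 CPM in CHD4-APR. Its group means were 566 ± 41.6 and 754 ± 2.61 CPM (SD, n = 3), all CHD4-APR libraries lay above all CTRL libraries, and the log2 fold change of 0.42 (SE 0.0497, FDR 1.15e-05), a rise of 33.3%, had the lowest FDR of the members. The corrected value was 0.12 (FDR 0.0195). Eif4a2, 1 of the helicase genes, was at 92.0, 102 and 95.1 CPM in CTRL and at 110, 112 and 112 CPM in CHD4-APR (log2 fold change 0.20, SE 0.0474, FDR 0.00281; corrected -0.05). Eif4e2, which encodes a cap-binding protein known for repressing translation, was the only gene of this group called lower (log2 fold change -0.17, FDR 0.00646; corrected -0.27). The main scaffold Eif4g1 was at 588, 612 and 609 CPM and at 631, 641 and 629 CPM, without overlap but also without passing the test (log2 fold change 0.07, FDR 0.182). Eif4e, the cap-binding factor, had a log2 fold change of 0.04 (FDR 0.530), and Eif4a1, the more abundant helicase, of -0.03 (FDR 0.595). Both were called lower with the correction (Eif4e -0.23, FDR 0.00143, and Eif4a1 -0.11, FDR 0.0367), which gave 1 gene higher and 3 lower in this group. In Eif4a1 33.3% and in Eif4a2 12.7% of the 50-base stretches lie also in other genes.

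The eIF4E-binding proteins, which compete with eIF4G for eIF4E and let go of it when mTORC1 phosphorylates them, split by gene. Eif4ebp1 (ENSMUSG00000031490, chr8:27260329-27276674) was at 77.7, 64.2 and 69.8 CPM in CTRL and at 58.5, 56.7 and 55.4 CPM in CHD4-APR. The groups did not overlap, and the log2 fold change of -0.31 (SE 0.0614, FDR 8.66e-04; corrected -0.28) was the largest fall of the members. Eif4ebp2 (ENSMUSG00000020091, chr10:61428491-61452661) was at 65.0, 67.4 and 71.3 CPM in CTRL and at 87.8, 82.4 and 76.3 CPM in CHD4-APR, every CHD4-APR library being higher (log2 fold change 0.27, SE 0.0562, FDR 0.00113; corrected 0.27). Eif4ebp1 had more counts than Eif4ebp2 in CTRL 1 and fewer in the other CTRL libraries and in every CHD4-APR library. Eif4ebp3 (FDR 0.572) and Eif4enif1, the eIF4E transporter (FDR 0.823), were not called.

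The part of the coding sequence through which these proteins and the eIF4G scaffolds bind the same face of eIF4E is shown with the codons of the eIF4E-binding motif in capitals, since Eif4ebp1 fell while Eif4ebp2 and Eif4g2 rose. The stretches are from GRCm38: exon 2 of Eif4ebp1 (chr8:27273325-27273366, plus strand), exon 3 of Eif4ebp2 (chr10:61435060-61435101, minus strand), exon 12 of Eif4g1 (chr16:20681209-20681250, plus strand) and exon 15 of Eif4g3 (chr4:138156638-138156679, plus strand). They differ at 11 of 42 bases between Eif4ebp1 and Eif4ebp2, and at 11 of 42 between Eif4g1 and Eif4g3. The motif was searched only as the amino acids YDR, any residue, FL and then L or M, and other forms of it were not searched. In this form it was not found in the 906 codons of Eif4g2, whose annotated start codon is the GTG shown above.
Eif4ebp1: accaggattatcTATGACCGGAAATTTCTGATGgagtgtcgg
Eif4ebp2: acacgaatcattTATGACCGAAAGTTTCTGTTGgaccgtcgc
Eif4g1: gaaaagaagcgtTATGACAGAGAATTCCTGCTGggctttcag
Eif4g3: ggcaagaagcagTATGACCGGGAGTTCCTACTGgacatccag

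Of the 4 genes for subunit joining, eIF5A and eIF6, 1 rose, 2 fell and 1 was not called. Eif5a (ENSMUSG00000078812, chr11:69916714-69921958), whose product carries hypusine and helps ribosomes through difficult peptide bonds, was at 470, 434 and 445 CPM in CTRL and at 377, 378 and 405 CPM in CHD4-APR. All CHD4-APR libraries were lower (log2 fold change -0.22, SE 0.0456, FDR 0.00140; corrected -0.08, FDR 0.120). Its paralog Eif5a2 (ENSMUSG00000050192, chr3:28781276-28798846), a much lower gene, was at 4.77, 4.68 and 5.29 CPM in CTRL and at 7.78, 6.81 and 6.75 CPM in CHD4-APR. Every CHD4-APR library was higher, the log2 fold change of 0.54 (SE 0.104, FDR 7.77e-04) was the largest rise of the members, and the corrected value of 0.27 did not pass the test (FDR 0.0645). Eif6, which keeps the large subunit from joining too early, fell by 0.16 on the log2 scale (FDR 0.0141), lost its call when CHD4-APR 2 was left out (-0.15, FDR 0.0697) and had a corrected value of -0.01. Eif5b, the GTPase that joins the subunits, had a log2 fold change of 0.06 (FDR 0.296; corrected -0.22).

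The stretch around the lysine that becomes hypusine is nearly the same in both eIF5A genes, and its codon, number 50 in both, is in capitals. The sequences are from GRCm38 and run across a splice junction, from exon 3 into exon 4 of Eif5a (chr11:69918019-69919180, minus strand) and from exon 2 into exon 3 of Eif5a2 (chr3:28782187-28782730, plus strand). They differ at 4 of 33 bases.
Eif5a: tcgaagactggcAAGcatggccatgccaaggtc
Eif5a2: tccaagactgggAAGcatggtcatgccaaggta

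Among the elongation factors, the tRNA carrier and the subunits of its exchange factor went in opposite directions. Eef1a1 (ENSMUSG00000037742, chr9:78478449-78489151) was at 6908, 7111 and 6942 CPM in CTRL and at 7648, 7681 and 7673 CPM in CHD4-APR, without overlap (log2 fold change 0.13, SE 0.0410, FDR 0.0162; corrected 0.14, FDR 0.00542). Its FDR was 0.0553 when CTRL 3 was left out and 0.0773 when CHD4-APR 2 was left out, with log2 fold changes of 0.13 and 0.14. In its longest transcript, 60.6% of the 50-base stretches also lie in 21 other genes, so its count depends on how the authors treated reads with several matches, which is not given in the sources used here.

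All 3 subunit genes of eEF1B, which exchanges the GDP of eEF1A, fell. Eef1d (ENSMUSG00000055762, chr15:75894205-75909556), the delta subunit, was at 452, 430 and 424 CPM in CTRL and at 346, 367 and 366 CPM in CHD4-APR (log2 fold change -0.28, SE 0.0436, FDR 1.41e-04; corrected -0.38, FDR 1.69e-05). Eef1b2, the beta subunit, went from 687, 664 and 617 CPM to 567, 564 and 591 CPM (log2 fold change -0.19, SE 0.0464, FDR 0.00369; corrected -0.22). Eef1g, the gamma subunit, went from 577, 553 and 538 CPM to 485, 478 and 504 CPM (log2 fold change -0.19, SE 0.0432, FDR 0.00295; corrected -0.10, FDR 0.0539). For all 3 genes every CHD4-APR library was below every CTRL library, as was the case for 25.0% of all genes tested. The pseudogene Gm4366 holds 58.4% of the 50-base stretches of Eef1g. Eef2 was at 5149, 4861 and 4855 CPM in CTRL and at 4753, 4699 and 4714 CPM in CHD4-APR, without overlap but not past the test (log2 fold change -0.07, SE 0.0425, FDR 0.217; corrected 0.06).

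**Figure D4:**
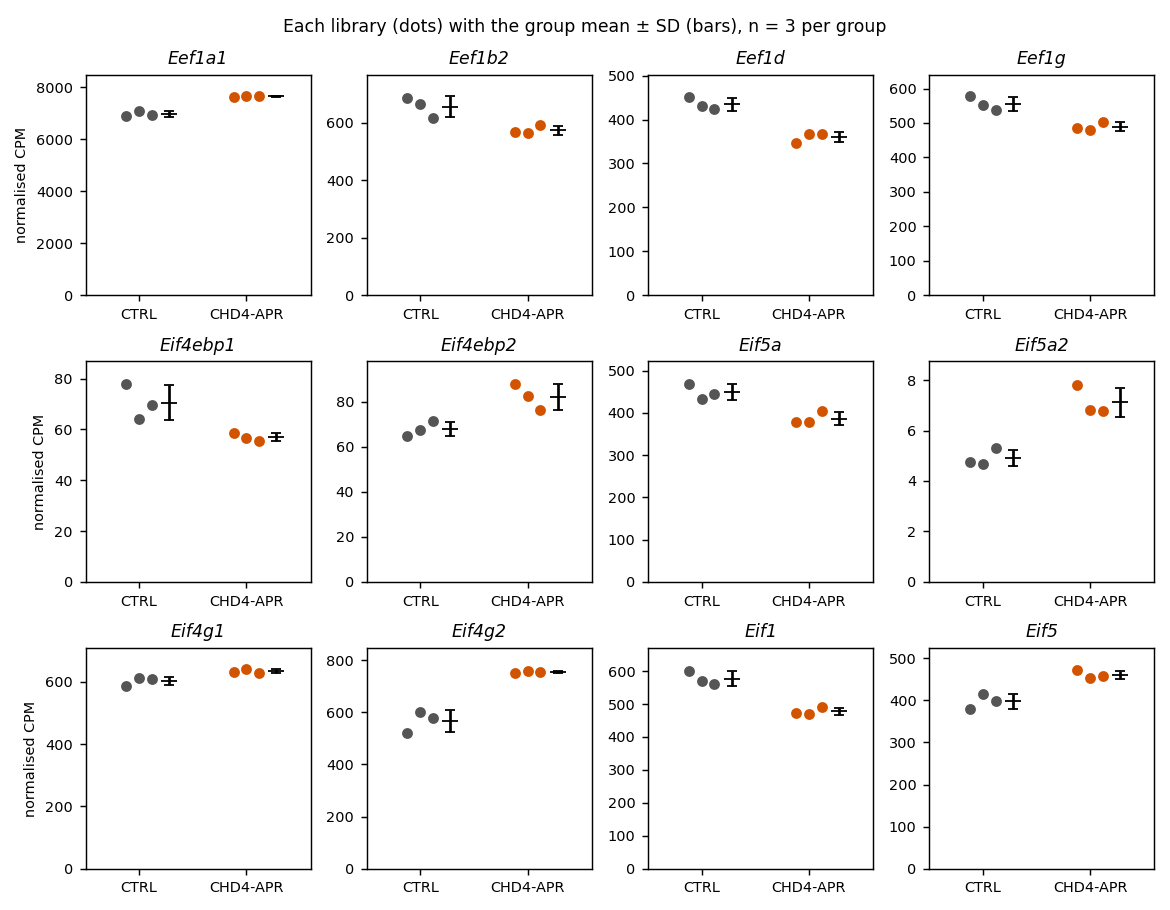
Normalised CPM (vertical axes from 0) of 12 members in each library, as dots, with the group mean ± SD of the 3 libraries beside them. Eef1a1, Eif4ebp2, Eif5a2, Eif4g2 and Eif5 were higher and Eef1b2, Eef1d, Eef1g, Eif4ebp1, Eif5a and Eif1 lower in every CHD4-APR library. Eif4g1 was also higher in every CHD4-APR library but did not pass the test.

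The enzymes that modify the elongation factors gave 1 call among 4 genes tested. Eef2kmt, a lysine methyltransferase of eEF2, was at 8.83, 9.48 and 8.26 CPM in CTRL and at 7.61, 6.60 and 7.62 CPM in CHD4-APR, without overlap (log2 fold change -0.28, SE 0.0952, FDR 0.0264; corrected -0.16). Leaving out CTRL 2 or CHD4-APR 2 gave a log2 fold change of -0.23 or -0.22 with an FDR of 0.0949 or 0.137, and 20.0% of its 50-base stretches lie in Alg1. Eef2k, the kinase that inhibits eEF2, had a log2 fold change of -0.07 (FDR 0.352) and was called lower with the correction (-0.15, FDR 0.0354). Eef1e1, a subunit of the multisynthetase complex (FDR 0.183; corrected 0.07, FDR 0.623), and Eif4a3, the helicase of the exon junction complex (FDR 0.0709; corrected 0.02, FDR 0.760), were not called.

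Ratios between related genes within a library do not depend on the scaling of that library. Of 11 pairs, 10 had counts for both genes, and in 8 of these the 3 CHD4-APR ratios lay entirely on 1 side of the CTRL ratios, among them Eif3j1 and Eif3j2, which cannot be counted apart with confidence. The share over gene pairs in general was not computed, and among single genes the groups did not overlap for 49.9%, so this count is not read as particular to these pairs. The exact two-sided permutation p was 0.1 for each of these 8 pairs, the smallest that 3 against 3 libraries allow, and 0.125 after Benjamini-Hochberg adjustment over the 10 pairs, so no pair could pass a threshold of 0.05. The log2 ratio of Eif5a to Eif5a2 was 6.51 ± 0.115 in CTRL and 5.76 ± 0.155 in CHD4-APR (SD, n = 3), a difference of -0.75. That of Eif4ebp1 to Eif4ebp2 went from 0.05 ± 0.180 to -0.53 ± 0.0624, a difference of -0.58. The ratio of Eif4g1 to Eif4g2 changed by -0.35, from 0.09 ± 0.0761 to -0.25 ± 0.0113, and Eif4g2 passed Eif4g1 in counts. The ratio of the helicases Eif4a1 to Eif4a2 changed by -0.24, and that of the cap-binding Eif4e to Eif4e2 by 0.21. The 2 overlapping pairs were Eif4g1 with Eif4g3 (difference 0.04, exact permutation p = 0.5, adjusted 0.5) and Eif1 with Eif1b (difference -0.10, exact permutation p = 0.3, adjusted 0.333). The difference between the corrected log2 fold changes of the 2 genes was -0.55 for Eif4ebp1 and Eif4ebp2, -0.35 for Eif5a and Eif5a2, -0.07 for Eif4g1 and Eif4g2, -0.06 for Eif4a1 and Eif4a2 and 0.04 for Eif4e and Eif4e2. Both genes of a pair were part of the fit above, so the ratios restate those values within libraries.

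**Figure D5:**
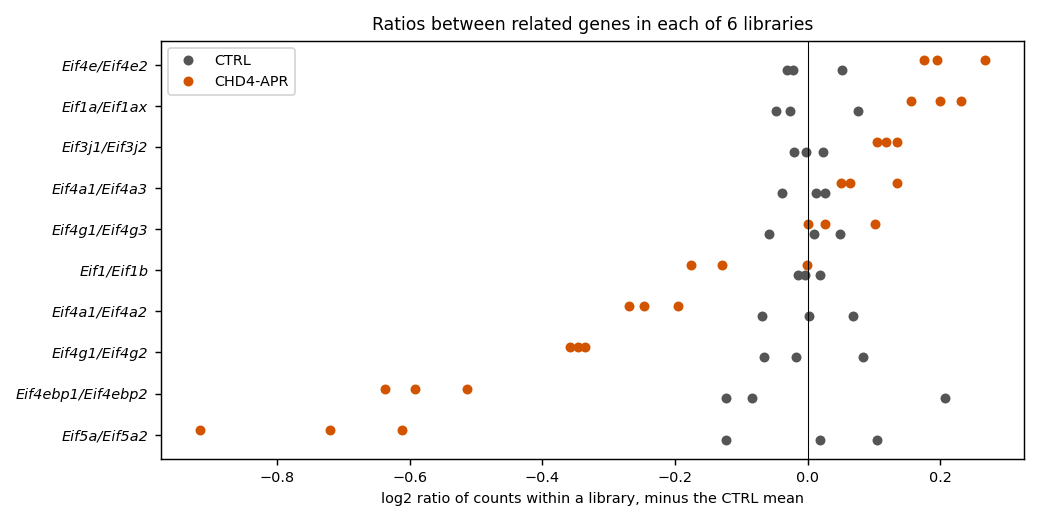
The log2 ratio of counts of 10 pairs of related genes in each of the 6 libraries, minus the CTRL mean of the pair (horizontal axis), with CTRL libraries in grey and CHD4-APR libraries in orange. The CHD4-APR points lie apart from the CTRL points in 8 pairs, farthest for Eif5a/Eif5a2 (-0.75) and Eif4ebp1/Eif4ebp2 (-0.58).

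The promoters of the members were read in RefSeq's windows of 250 bases before to 50 bases after a gene's start on GRCm38.p6, which matched 46 of the 62 members. The letters CCGGAAG, the core to which ETS factors bind, were found on either strand in 16 of the 46 (34.8%), in 8 of 14 members called lower (57.1%), 2 of 8 called higher (25.0%) and 6 of 23 not called (26.1%), the remaining member being untested. Of 8001 protein-coding genes tested with a window, 23.5% held them, with 30.5% of those called lower, 21.5% of those called higher and 21.9% of those not called. A gene was counted if any of its windows held the letters. Counted by window, they were in 19 of the 60 windows of the members (31.7%) and in 8.86% of all 32851 windows. The E-box letters CACGTG, a palindrome that cannot share a base with the first motif, were in 12 of the 46 (26.1%), in 28.6% of members called lower, 25.0% of those called higher and 26.1% of those not called, in 12.2% of the genes tested and in 7.15% of all windows. A run of at least 7 pyrimidines within 30 bases of the start was in 39.1% of the members, 28.6% of those called lower, 25.0% of those called higher, 47.8% of those not called and 35.3% of the genes tested. These motifs were chosen after the values had been seen, and a match is a description of letters, not of binding. Windows around CCGGAAG, in capitals, are shown for 4 members called lower, 2 of them subunits of eIF2B: Eif2b2 (chr12:85219486-85219514, plus strand), Eif2b4 (chr5:31193121-31193149, minus strand), Eef1b2 (chr1:63176821-63176849, plus strand) and Eif5a (chr11:69920668-69920696, minus strand), where 1 of 6 windows held the letters. The windows of Eif2b1, also called lower, and of Eif2b5 did not hold them.
Eif2b2: cctctctcggcCCGGAAGtgaaacagtgc
Eif2b4: cccagtgcacgCCGGAAGttgtagtccgc
Eef1b2: ctgcagttccgCCGGAAGtagccgaggcc
Eif5a: cagccgtagcaCCGGAAGtgttccccatt

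Other genes of translation, 57 in 7 lists, had 56 tested, of which 12 rose, 9 fell and 35 were not called. With the length and GC correction 6 were called higher and 14 lower. The called share of 37.5% lay near the 38.3% of all genes. The eIF2 kinases and phosphatase subunits, which set how much eIF2 is phosphorylated, had 2 rises and 2 falls in 6 genes. Eif2ak3, the kinase PERK of the unfolded protein response, was at 15.3, 14.6 and 15.7 CPM in CTRL and at 20.6, 25.5 and 23.5 CPM in CHD4-APR (log2 fold change 0.61, SE 0.0794, FDR 2.47e-05; corrected 0.58). Ppp1r15b, which directs a phosphatase to eIF2, rose by 0.47 on the log2 scale (FDR 2.19e-06; corrected 0.41), and Ppp1r15a, its stress-induced relative, fell by 0.19 (FDR 0.00219; corrected -0.07). The heme-regulated kinase Eif2ak1 went from 655, 624 and 628 CPM to 595, 558 and 576 CPM (log2 fold change -0.14, FDR 0.0152; corrected -0.20).

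Among factors of scanning and reinitiation, 2 of 8 rose: the helicase Ddx3x, from 190.3, 221 and 215 CPM to 318, 332 and 311 CPM (log2 fold change 0.62, SE 0.0527, FDR 8.87e-07; corrected 0.38), and Bzw1, which competes with eIF5 (log2 fold change 0.32, FDR 8.21e-05; corrected 0.14). Of 5 termination and recycling genes tested, the recycling factor Abce1 and the release factors Etf1 and Gspt1 rose by 0.33, 0.18 and 0.16 on the log2 scale (FDR 6.29e-04, 0.00384 and 0.0209), and their corrected values of 0.06, 0.07 and 0.02 did not pass the test. Of 5 poly(A)-binding genes, Paip1, a partner of the poly(A)-binding protein, and Pabpc1, the protein itself, rose by 0.17 and 0.11 (FDR 0.0345 and 0.0384; corrected -0.03 and -0.08). In mTORC1 and cap signalling 1 of 13 rose, Rheb, the GTPase that activates mTORC1 (log2 fold change 0.18, FDR 0.0301; corrected -0.04), and 3 fell. The falls were Rps6kb2, an S6 kinase (log2 fold change -0.32, FDR 8.28e-05; corrected -0.26), Akt1s1, an mTORC1 inhibitor (-0.19, FDR 0.0431; corrected -0.05), and Mknk2, a kinase of eIF4E (-0.17, FDR 0.00306; corrected -0.05). Of the 9 hypusine and diphthamide enzymes, Dohh, which completes the hypusine of eIF5A, fell by 0.28 on the log2 scale (FDR 0.00122; corrected -0.12), while Dnajc24 and Dph6 of the diphthamide pathway rose by 0.29 and 0.27 (FDR 0.0198 and 0.0218; corrected 0.31 and -0.12). Of 10 mitochondrial translation factors, Mrrf (recycling), Mtif3 (initiation) and Tufm (elongation) fell by 0.27, 0.24 and 0.20 (FDR 0.00359, 0.0104 and 0.00233; corrected -0.29, -0.21 and -0.05).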

How the data were processed

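Poly(A) RNA of 3 CTRL and 3 CHD4-APR samples was sequenced from TruSeq v2 libraries, which do not mark strand. Per the paper's methods and the submitters' processing notes, the authors used Cutadapt, STAR 2.7.10a on GRCm38 and featureCounts. The deposited values are raw counts per Ensembl gene. The strand setting and the treatment of reads with several matches are not given in the sources used here. Another 2 count columns that match no sample were not used.

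Counts were analysed in R 4.3.3 with edgeR 4.0.16 (filterByExpr, TMM, quasi-likelihood F-test, Benjamini-Hochberg adjustment over 12722 genes, threshold 0.05). CPM are counts per 1000000 of the TMM-scaled library total, and a standard error is the fold change divided by the root of F. Symbols, positions, exonic lengths and GC content came from GENCODE M21. In the correction, log2 CPM (prior count 2) of each library were regressed on natural splines of log length and GC content (5 degrees of freedom each), and the fitted trend was used as an offset. Alternatives were DESeq2 1.42.0, limma-voom 3.58.1, other size factors, filters and gene sets, a replicate block, an FDR under 0.01 and leaving out each library. Procedures were also run on simulated counts with known changes, and on counts with a linear GC trend and no changed genes. The latter cannot show whether the correction removes changes that follow GC content.

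Members, gene lists and roles were chosen with earlier results of these data known. All members could be named. Full values are given for the 10 largest falls and 10 largest rises among called members and the 5 highest by RPKM, and elsewhere up to 3 called genes with the largest changes per list. Beyond this rule, Eif2b2 and Eif4g1 were given in full, and Eif2ak1 and Mknk2 named beside the 3 of their lists, after their values were seen. A gene that the rule covers but GENCODE places outside the count table, Eef1akmt4, was not analysed here.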

Additional observations from a re-analysis of the deposited data

How the results depend on the processing

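The counts of called members were 30 with DESeq2, limma-voom, RLE size factors, a minimum of 10 counts in every library or no hemoglobin genes, 28 with no filter on low counts, and 32 with upper quartile size factors or protein-coding genes alone. Eif3g and Eif4a3 were the calls added with upper quartile size factors and with protein-coding genes alone. With the replicate block 31 members were called (10 higher and 21 lower). The labels do not say whether same-numbered replicates were paired. Deviations of same-numbered libraries correlated at 0.0697, 0.0552 and -0.0350, and those of differently numbered CTRL and CHD4-APR libraries at -0.0808 to 0.0338. Such weak correlations cannot tell whether the samples were paired. At an FDR under 0.01, 18 members, 11 members lower and 12 other translation genes were called, beside 3250 of all genes (4871 of all genes at FDR under 0.05). Leaving out 1 library gave 19 to 28 members, of which 12 to 18 lower, beside 3703 to 4928 of all genes, and 0 to 1 members past 1.5-fold, the 1 arising without CTRL replicate 3. The length and GC correction left 4 members higher, also together with the replicate block. It turned the sign of the log2 fold change in 12 genes called with or without it, to -0.23 for Eif4e, -0.050 for Eif4a2, -0.24 for Eif2a, -0.19 for Eif2s2, -0.041 for Eif1a, -0.059 for Eif5, -0.22 for Eif5b, 0.0018 for Eif3b, -0.17 for Eif3m, -0.33 for Eif3e, -0.13 for Eif3j1 and -0.078 for Eif3a. With the replicate block in addition these were -0.23, -0.050, -0.24, -0.19, -0.042, -0.059, -0.22, 0.0019, -0.17, -0.32, -0.13 and -0.079 in the same order. The cause was not tested. The call and its direction were kept under all 17 alternatives to the threshold of 0.05 by Eif4g2, Eif2s3x and Eif4ebp2 (higher) and by Eif4e2, Eif1, Eif1ad, Eef1d, Eef1b2, Eif3k, Eif3i and Eif4ebp1 (lower). An alternative chosen after seeing the data, the difference between the corrected log2 fold changes of a pair, moved the log2 ratio difference to -0.056 for Eif4a1/Eif4a2, -0.070 for Eif4g1/Eif4g2, 0.14 for Eif4g1/Eif4g3, 0.044 for Eif4e/Eif4e2, 0.061 for Eif3j1/Eif3j2 and -0.35 for Eif5a/Eif5a2, and turned that of Eif4a1/Eif4a3 from 0.083 to -0.13. Pairs that moved by less than the larger of their group SDs are left out of this list. Eif1/Eif1b is such a pair, with -0.10 without and -0.18 with the correction (larger SD 0.0904). Another scaling moved the median of all genes by at most 0.017 on the log2 scale. With 3 libraries a group, calls could be lost when 1 library was left out, also calls with an FDR as low as 0.0141 (Eif6) and 0.0162 (Eef1a1). Calls were gained by Eif3g without CTRL 2 (FDR 0.0336) and by Eef1akmt1 without CTRL 3 (FDR 0.0262). Each such fold change of a member kept its sign.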
